A study of Mus musculus with 2 samples.

Results

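Stretches of 1000 bp with few measured CpGs and a middle methylation level in wild-type (WT) mouse blood are described here. Windows began at multiples of 1000 plus 1 on the 19 autosomes. Members held 5 to 15 cytosines of CpG sites covered by 10 or more reads in both libraries, had a pooled WT level from 40% to 60%, and had no window of over 50 such cytosines starting within 2000 bp. They were therefore selected on the WT level, and the WT level is a description and not a finding. The rule gave 3626 windows, 4.78% of the 75888 CpG-poor windows of all levels that met the same counts and neighbour rule, and 376 more were left out by the neighbour rule. All windows of 3 or more shared cytosines, which formed the background for calls, numbered 165945 on the autosomes and X. By the window's midpoint, 2230 members lay inside a gene and 1396 outside, which was 4.99% and 4.47% of the CpG-poor windows there. Just below the lower bound, 306 CpG-poor windows lay between 38% and 40%, beside 342 from 40% to 42%. Around the upper bound there were 418 from 58% to 60% and 427 from 60% to 62%.

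Peripheral blood cells of 1 WT mouse were compared with those of 1 mouse that expressed I-PpoI in the epithelial cells of the kidney's proximal tubules. I-PpoI is a homing endonuclease, an enzyme with a long recognition site, and leaves double-strand breaks in DNA. The labels give no age, sex or strain for either mouse, and no driver line for the expression of I-PpoI. The assay was reduced representation bisulfite sequencing (RRBS). MspI cuts DNA at the letters CCGG, and bisulfite makes unmethylated cytosines read as T. With 1 library a group there was no test of the conditions, and a difference between the libraries cannot be told apart from a difference between these 2 animals or preparations.

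Most CpGs of mammalian DNA outside CpG islands are methylated on both strands, and enzymes of the DNMT family maintain this state through cell division. A middle level in bulk DNA is known to arise in several ways. The cells or the parental copies can differ, or neighbouring CpGs can differ within a stretch. In blood, CpG-poor enhancers of lineage genes are often methylated in some cell types and not in others, and imprinted regions are methylated on the copy from one parent.

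The libraries listed 3569384 and 3141563 cytosines, with median coverages of 53 and 49 reads, and 3030488 were shared on the autosomes and X. Over the members the median summed coverage was 404.5 WT reads (range 50 to 4284) and 294 I-PpoI reads (50 to 4043). The median member held 8 cytosines over a span of 177.5 bp, and a single cytosine had a median coverage of 44 WT reads and 31 I-PpoI reads. A read over several cytosines counts once for each of them, so all intervals below cover counting error only and are too narrow where cytosines of a read are alike. The ratio of summed I-PpoI reads to summed WT reads was 0.76 in the members, 0.88 in CpG-poor windows under 20% and 0.66 in those over 80%. With reads thinned to equal coverage, the members' median difference (I-PpoI minus WT) was -3.88 points inside genes and -4.23 outside. With all reads it was -4.06 and -4.12. Beyond the thinned values given here and below, the part of this coverage difference in the results was not tested. Within 1000 bp of the annotated start, 4 of 8 leukocyte genes held measured cytosines, at 1.67% to 24.6% in WT. The 3 measured of 8 kidney genes were at 5.04% to 88.6%, and none of the markers of other tissues was measured.

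Sequences show where the measured CpGs lay in parts of such windows. The rule counts measured cytosines alone, so a window can hold further CpGs. Only RefSeq promoter sequences of GRCm38.p6, 250 bases before to 50 after a start, were at hand, and 99.94% of the 370992 listed cytosines inside them sat on a CG of this build, so the positions of the libraries are those of GRCm38. Of the 10 members with 8 or more cytosines in the 250 bases before a protein-coding start, those 3 with the most alike and those 3 with the least alike WT cytosines by SD are shown 5′ to 3′ on the strand of the gene. Capitals mark CpGs with a measured cytosine, and a CpG in lower case, as in Krt23, had none. The stretches are chr4:100478651-100478851 (+) before Ube2u, a ubiquitin-conjugating enzyme gene, chr2:32424100-32424315 (-) before Slc25a25, a mitochondrial carrier gene, chr5:134946988-134947157 (-) before the tight junction gene Cldn4, chr11:99493176-99493342 (-) before the keratin gene Krt23, chr7:24112099-24112276 (+) before the zinc finger gene Zfp112, and chr7:141276788-141276883 (-) before Cdhr5, a cadherin-related gene.
Ube2u: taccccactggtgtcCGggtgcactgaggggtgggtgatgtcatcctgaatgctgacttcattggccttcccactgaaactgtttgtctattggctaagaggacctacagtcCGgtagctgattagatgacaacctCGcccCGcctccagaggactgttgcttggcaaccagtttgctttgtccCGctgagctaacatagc
Slc25a25: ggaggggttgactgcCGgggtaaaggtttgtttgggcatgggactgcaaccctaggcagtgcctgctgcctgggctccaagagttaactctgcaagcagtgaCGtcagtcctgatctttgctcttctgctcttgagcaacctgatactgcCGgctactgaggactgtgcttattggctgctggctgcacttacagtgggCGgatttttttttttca
Cldn4: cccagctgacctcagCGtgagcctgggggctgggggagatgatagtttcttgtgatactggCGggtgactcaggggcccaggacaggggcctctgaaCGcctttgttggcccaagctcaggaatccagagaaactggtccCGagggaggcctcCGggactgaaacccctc
Krt23: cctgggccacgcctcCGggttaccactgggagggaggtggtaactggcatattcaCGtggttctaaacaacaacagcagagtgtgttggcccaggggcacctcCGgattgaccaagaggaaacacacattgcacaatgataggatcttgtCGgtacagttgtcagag
Zfp112: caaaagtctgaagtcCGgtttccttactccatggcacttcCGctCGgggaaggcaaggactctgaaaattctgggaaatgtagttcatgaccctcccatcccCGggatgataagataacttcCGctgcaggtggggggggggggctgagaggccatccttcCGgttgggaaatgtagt
Cdhr5: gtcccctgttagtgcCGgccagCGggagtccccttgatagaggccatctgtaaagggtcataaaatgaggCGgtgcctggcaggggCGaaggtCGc

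The alike windows held middle levels at nearly every CpG shown. In Ube2u the sense-strand cytosines of CpGs 1 to 5, counted from the 5′ end, were at 49.7%, 65%, 48.2%, 48.4% and 38.3% in WT. In I-PpoI they were at 46.0%, 69.8%, 60%, 41.03% and 17.9%. The antisense cytosine of its CpG 1 was at 89.5% and 100%, far above its sense partner. The Ube2u window as a whole had 52.6% in WT and 37.7% in I-PpoI. In Slc25a25 the sense-strand cytosines were at 40.5%, 54.1%, 41.5% and 49.7% in WT and at 27.7%, 33%, 31.4% and 43.0% in I-PpoI. The 9 measured cytosines shown for Cldn4 ran from 19.8% to 71.1% in WT and from 18.2% to 43.8% in I-PpoI.

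The unlike windows reached the same pooled level from high and low cytosines. Sense-strand cytosines of Krt23 were at 85.2%, 19.5%, 63.3% and 19.4% in WT, and at 72.9%, 19.4%, 76.6% and 35.3% in I-PpoI. In Zfp112 CpG 2 had 84.8% on the sense strand in WT, against 62.8% in I-PpoI, while the antisense strand of CpG 6 was at 0% and 7.69%. CpG 4 of Zfp112, within a CCGG, was at 91.2% on the sense strand and 21.3% on the antisense strand in WT, and at 96.3% and 8.51% in I-PpoI. In Cdhr5 the sense-strand cytosines of CpGs 1 and 2 were at 17.4% and 70.8% in WT and those of CpGs 3, 4 and 5 at 100%. In I-PpoI they were at 25%, 91.7%, 90.9%, 100% and 83.3%, so CpG 1 was the lowest in both libraries.

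Across all members, mixed windows were commoner than alike ones by the bounds given here. Of their 30403 cytosines, 26.2% were themselves at 40% to under 60% in WT, 12.8% were under 20% and 20.6% at 80% or over. In I-PpoI these shares were 21.9%, 18.98% and 19.8%. In WT 1781 windows (49.1%, exact 95% binomial interval 47.5 to 50.8) were mixed, with at least 1 cytosine under 20% and 1 over 80%. Alike windows, with every cytosine from 20% to 80%, numbered 378 (10.4%, 9.45 to 11.5). In I-PpoI 54.4% were mixed and 6.43% alike, and 1393 windows were mixed and 123 alike in both libraries. Counted over all cytosines, a mixed make-up was not particular to middle levels. By the same bounds 49.4% of CpG-poor windows under 20% were mixed in WT, and 63.3% of those at 20 to 40%. At 60 to 80% the share was 15.4%, and over 80% it was 0.91%. In windows under 20%, inner CpGs had WT medians of 4.35% and 4.51%, but the reverse strand of the first CpG had 94.4%. A single such end cytosine can make a low window mixed. Shares without end cytosines were taken for the members alone.

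The spread inside windows was larger than counting gives. The median SD of cytosine levels in a window was 27.2 points in WT and 28.2 in I-PpoI, where the read counts alone would give 6.33 and 7.27. CpG-poor windows over 80% had a median SD of 6.02 points and those under 20% had 24.5, again over all cytosines. A cytosine's deviation from its window's mean was alike in the libraries, with a correlation of 0.847 over 30403 cytosines and one of 0.811 over the 26668 that are not the outer-strand cytosines described next. This describes cytosines that share their windows and their neighbours, and gives no test.

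The medians of the 2 strands of a CpG differed at the ends of the measured stretch and were alike between them. At 1514 members the first CpG of the window was measured on both strands. Its forward-strand cytosine had a median of 42.1% in WT and 33.3% in I-PpoI, and its reverse-strand cytosine 95.2% and 95.7%. At the last CpG of 1520 members the order was turned, with 95.1% on the forward strand and 42.9% on the reverse in WT, and 95.5% and 36.8% in I-PpoI. The 8398 CpGs in between had 50% on both strands in WT, and 44.8% and 45% in I-PpoI. Single inner CpGs still differed between strands by a median of 11.0 points in WT.

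**Figure D1:**
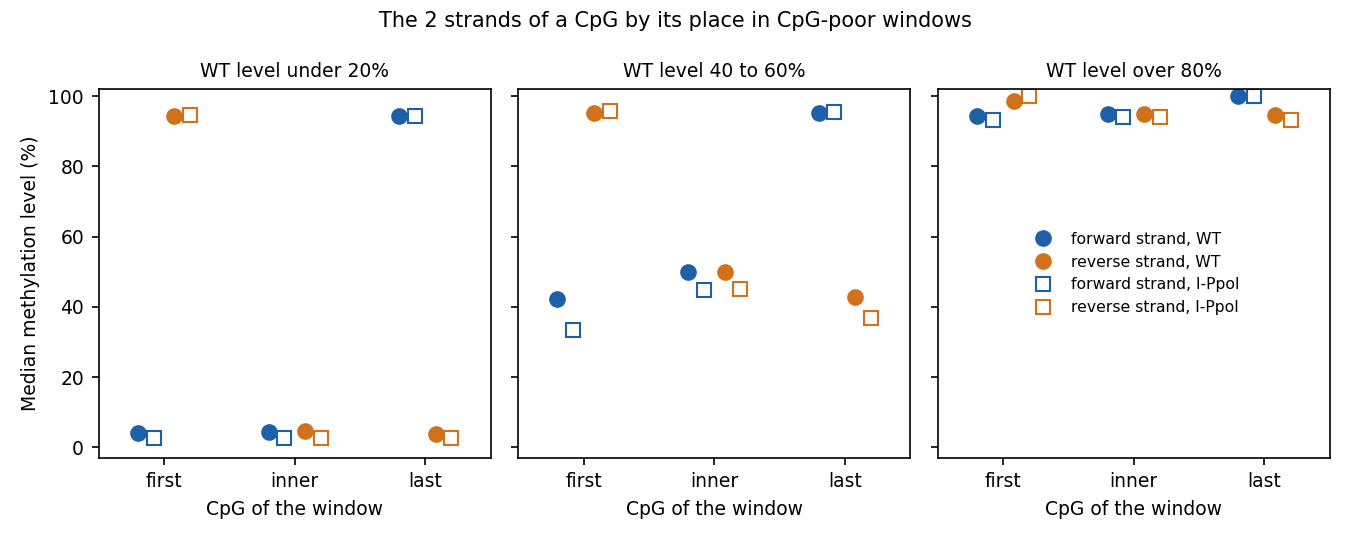
Median methylation level (%) of the forward (blue) and reverse (orange) strand at the first, inner and last CpGs of CpG-poor windows under 20%, at 40 to 60% and over 80% in WT, for WT (filled circles) and I-PpoI (open squares). In the middle panel the reverse strand of the first CpG and the forward strand of the last lie near 95% in both libraries, and the inner strands coincide.

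The same 2 positions were high in CpG-poor windows whose other cytosines were low. In windows under 20% the first CpG had 4.07% on the forward and 94.4% on the reverse strand in WT, and the last 94.3% and 3.85%. Windows over 80% left little room for such a difference, with 94.4% and 98.6% at the first CpG. The reverse-strand cytosine of a window's first CpG and the forward-strand cytosine of its last are called outer-strand cytosines here. They made up 3735 (12.3%) of the members' cytosines, and 64.1% of them in WT, and 65.0% in I-PpoI, were at 80% or over. Among the other cytosines these shares were 14.6% and 13.5%.

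**Figure D2:**
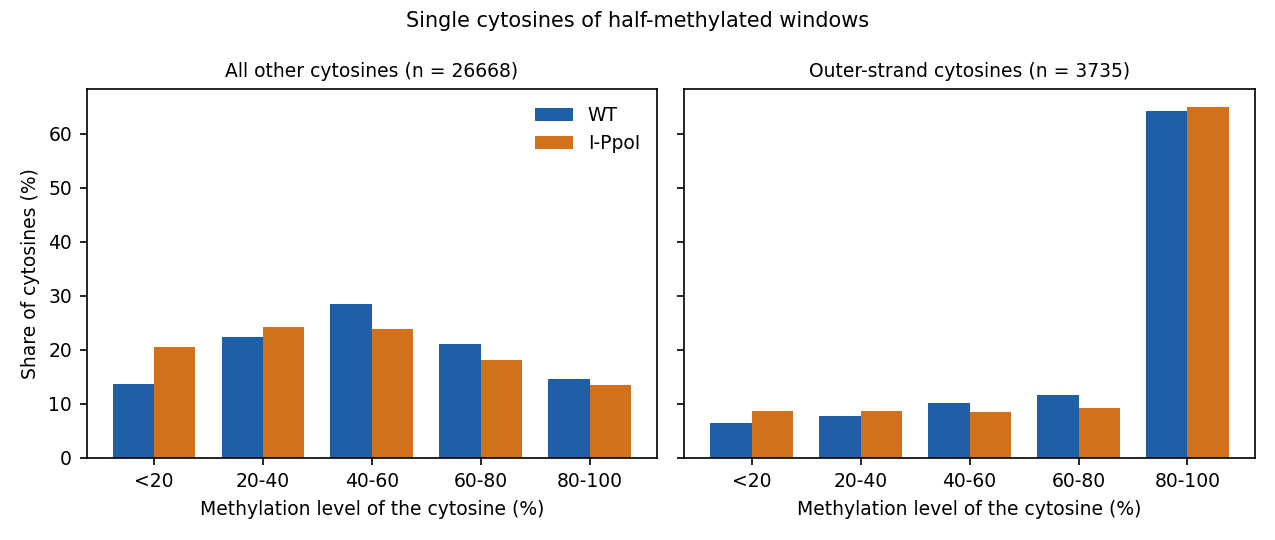
Share of cytosines (%) in 5 classes of methylation level, for 26668 cytosines that are not outer-strand (left) and 3735 outer-strand cytosines (right) of the members, with WT in blue and I-PpoI in orange. On the left 40 to 60% is the commonest WT class at 28.4%, while on the right 64.1% of WT cytosines lie in the highest class.

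Where promoter sequences gave the letters around a cytosine, in 76 members, the strand difference was larger at the letters MspI cuts. The letters searched were CCGG, which read the same on both strands and which 52.8% of all 32817 promoter sequences of 300 bases hold. The 55 CpGs within CCGG that were measured on both strands differed by a median of 43.1 points in WT and 58.4 in I-PpoI. In WT 38 of these differed by over 30 points. The 91 other CpGs differed by 11.3 and 10.8 points, with 4 over 30. Outer-strand cytosines within CCGG, 28 in number, had medians of 90.6% and 93.1% in the WT and I-PpoI libraries, while the 21 outer-strand cytosines at other CpGs had 45.7% and 45%. MspI leaves an overhang that library preparation fills in with supplied nucleotides, and a cytosine placed there is not that of the animal. Its part in these levels was not tested.

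Leaving out the outer-strand cytosines kept most members at a middle level. Of the 3626 windows, 3076 (84.8%) remained from 40% to 60%, 419 were then under 40%, 4 of them under 20%, and 131 over 60%. The median level was 48.9% in WT and 44.1% in I-PpoI. Mixed windows then made up 36.3% in WT and 34.5% in I-PpoI, alike windows 25.3% (918) and 16.2%, and 393 were alike in both libraries. The median SD was 23.8 points in WT and 23.7 in I-PpoI, against 6.38 and 7.32 from counting. Choosing anew on these cytosines gave 2796 windows, of which 2468 were members by the rule. Only the ends of a window's measured stretch are left out in this way. Of the 8398 inner CpGs of the members, 281 (3.35%) had strands over 50 points apart in WT, and these stay in.

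Unlike cytosines tended to lie apart. Among neighbouring cytosines of the same strand, outer-strand ones left out, levels in WT differed by a median of 12.9 points at 1 to 10 bp, 18.2 at 21 to 40 bp and 39.4 at 161 to 999 bp. In I-PpoI the differences were 13.3, 18.04 and 39.5 points. Windows whose cytosines spanned over 280 bp were mixed in 69.0% of cases, those of 110 bp or less in 34.4%. The wider ones also held more cytosines, a median of 10 against 6, which by itself raises the share that is mixed. The left and right parts of a window differed by 30 points or more in 1145 members (31.6%) in WT. Of these, 1117 differed in the same direction in I-PpoI, and 809 by 30 points or more.

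**Figure D3:**
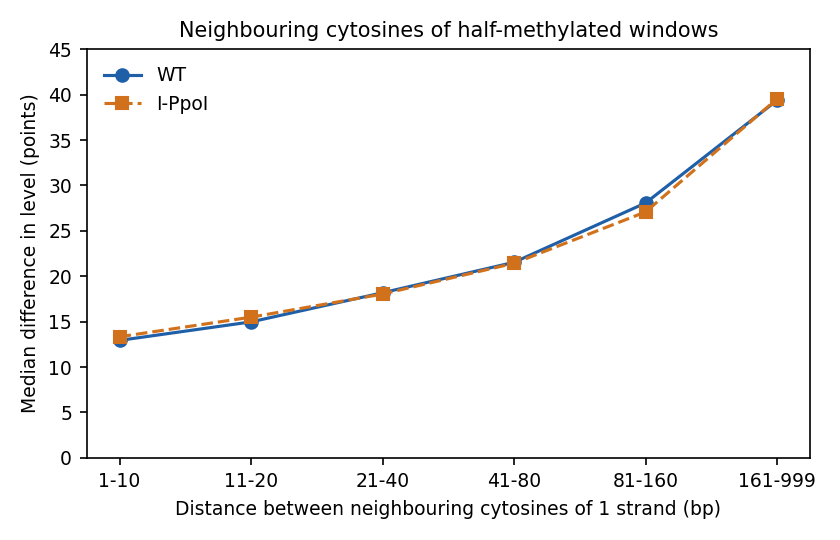
Median absolute difference in level (percentage points) between neighbouring cytosines of the same strand of the members, outer-strand cytosines left out, against their distance in 6 classes (bp), for WT (circles) and I-PpoI (squares). The WT median climbs from 12.9 points at 1 to 10 bp to 39.4 at 161 to 999 bp.

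Rem2, a small GTPase gene, held the window with the largest SD among members with 8 or more cytosines and 300 or more reads in each library. At 14:54479001-54480000 its 6 cytosines between positions 74 and 144 were at 93.8% to 100% in WT and 78.8% to 100% in I-PpoI. Further on, the 7 cytosines between positions 580 and 610 were at 0% to 7.41% in WT and 0% to 4% in I-PpoI, except 1 reverse-strand cytosine at 100% in both. The WT library had a pooled level of 59.0% (Wilson 95% interval 54.9 to 63.0) and the I-PpoI library one of 46.7% (42.9 to 50.6), and no single cytosine was at either level. Only 3 of the 13 cytosines were lower in I-PpoI. The difference of -12.3 points was -2.90 with reads thinned to equal coverage and -2.19 with cytosines weighted equally, so most of it went with the unlike coverage of the 2 blocks. The next largest SDs were those of a window nearest Epcam (17:87571001-87572000, 44.8% and 37.1%), of Usp2, a deubiquitinase gene (9:44089001-44090000, 43.0% and 27.2%), of the claudin gene Cldn11 (3:31150001-31151000, 42.3% and 39.6%) and of a window nearest 1700018B08Rik (8:121359001-121360000, 42.9% and 43.1%). All 4 held cytosines at 100% and cytosines under 2% in WT. With thinned reads the difference went from -15.8 to -3.002 points at Usp2, from -7.65 to -2.25 at the window nearest Epcam and from -2.68 to 1.26 at Cldn11.

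At the other end, windows with the smallest SDs held middle levels at each cytosine. In Noxa1, which encodes an activator of NADPH oxidase, 15 cytosines of 2:25094001-25095000 were at 37.9% to 67.1% in WT and 25% to 69.6% in I-PpoI. The pooled level was 48.3% in both, a difference of -0.032 points (Newcombe 95% interval -4.06 to 4.004). Its highest WT cytosine, at position 929, was also the highest in I-PpoI. The window nearest Gadd45g (13:52151001-52152000) had the lowest SD of these in I-PpoI, with cytosines at 44.3% to 74.5% in WT and 32.0% to 51.8% in I-PpoI, and a pooled level of 59.1% against 43.0%. Its difference of -16.1 points was -27.7 on the forward and -5.22 on the reverse strand. The other windows of this kind lay nearest Gm765 (6:98514001-98515000, 57.0% and 45.01%) and Rpl14 (9:120709001-120710000, 53.9% and 46.3%) and inside Mfsd4b5 (10:39975001-39976000, 57.0% and 60%). The strands differed there as well, with -17.1 points on the forward and 2.59 on the reverse strand nearest Rpl14, and -2.30 and 7.86 in Mfsd4b5.

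**Figure D4:**
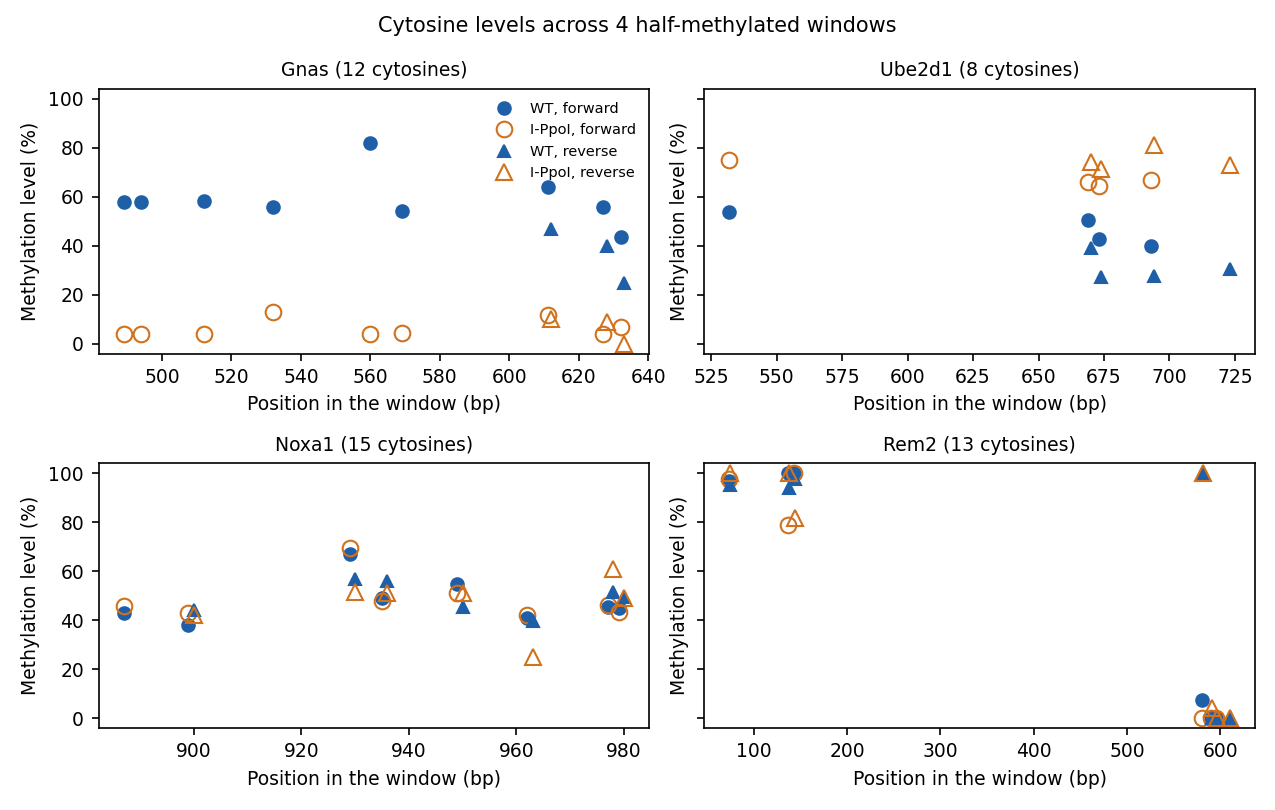
Methylation level (%) of each cytosine against its position in the window (bp) for the windows inside Gnas, Ube2d1, Noxa1 and Rem2, with WT filled, I-PpoI open, circles for the forward and triangles for the reverse strand. Noxa1 holds levels from 37.9% to 67.1% in WT throughout, and Rem2 a block of high and a block of low cytosines.

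The I-PpoI library was lower than WT over most members. The median level was 50.4% in WT and 46.0% in I-PpoI (quartiles 38.4% and 53.4%), and the median difference was -4.11 points (order-statistic 95% interval -4.52 to -3.77). It was -4.06 points inside genes (-4.63 to -3.65) and -4.12 outside (-4.66 to -3.63), and 68.7% of members were lower in I-PpoI. In I-PpoI 2180 members (60.1%) were still from 40% to 60%, 29.8% were under 40% and 10.1% over 60%, with 47 under 20% and 16 over 80%. Differences ran from -57.1 to 43.7 points. Windows are not replicates, and these intervals describe the 2 libraries.

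A level on which windows are selected tends to move towards its mean when measured again, and the size of the difference here depended on the library that chose the windows. The 4173 windows chosen by the I-PpoI level had a median difference of -6.12 points, and the 2180 of both choices -1.98. When windows were chosen on forward-strand cytosines and measured on the reverse strand, the 3350 that gave a value had a median of -4.17 points, and 66.7% were lower. With the strands exchanged, 3373 gave -4.72 points and 68.5%. Without outer-strand cytosines the members' median was -4.41 points (-4.69 to -4.11). The sign was the same under all of these choices.

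**Figure D5:**
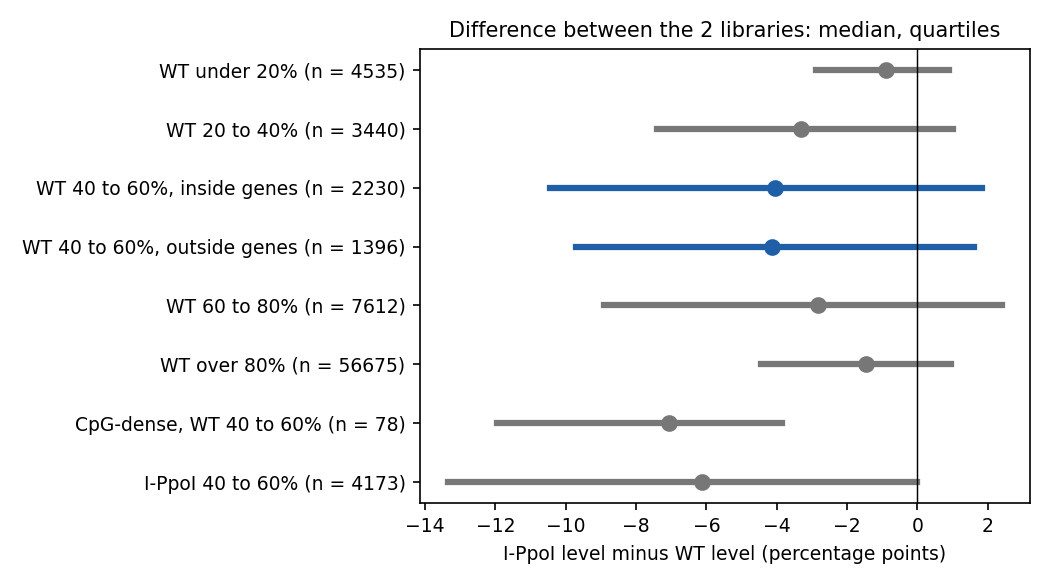
I-PpoI level minus WT level (percentage points) for CpG-poor windows by their WT level, for windows of over 50 cytosines at 40 to 60% and for CpG-poor windows chosen by the I-PpoI level, with dots at the medians and bars over the quartiles. Members, in blue, have medians of -4.06 points inside and -4.12 outside genes.

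Set beside windows of other WT levels, the members' median was further below 0 than that of CpG-poor windows at 20 to 40% (-3.30 points), at 60 to 80% (-2.83), under 20% (-0.89) and over 80% (-1.45). The 78 windows of over 50 cytosines at 40% to 60% had -7.07 points (-9.54 to -5.02). Low windows have less room to fall and high windows less room to rise. The part of this in the order of the medians was not tested. Members by chromosome ranged from -5.47 points on chromosome 12 to -2.94 on chromosome 13. Chromosome 11 had the highest share of CpG-poor windows that were members, 6.44%, and chromosome 16 the lowest, 3.49%. Single cytosines of the members had another order. Their median difference was -6.99 points for WT levels of 60 to 80%, -5.45 for 40 to 60% and -2.29 for 20 to 40%. It was 0 under 20% and -1.98 at 80% and over. The WT level that set these classes also enters the difference, so the order is given without a reading.

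A window was called where a two-sided Fisher's exact test on the reads of the 2 libraries gave a Benjamini-Hochberg adjusted p under 0.01 over all windows and the difference was 25 points or more. Over all windows 1.00% were called lower and 0.0741% higher. Among the members 94 (2.59%) were called lower and 18 (0.50%) higher, which is given without a reading since the rule used the WT level of this contrast. Inside genes there were 66 lower and 11 higher calls, outside 28 and 7. Members with under 200 WT reads held 45 of the lower and 12 of the higher calls, and those with 500 or more held 12 and 4.

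The largest loss inside a protein-coding gene, among members with 7 or more cytosines, 100 or more reads in each library and 80% or more of cytosines moving the same way, was at Gnas. This imprinted gene encodes the alpha subunit of the stimulatory G protein. In the window 2:174295001-174296000, whose midpoint lay 11180 bp from the nearest annotated start, 12 cytosines were at 25% to 82.1% in WT and at 0% to 13.0% in I-PpoI, and all 12 were lower with no overlap between the libraries. The pooled level was 54.7% (49.9 to 59.5) and 6.31% (4.16 to 9.45), a difference of -48.4 points (Newcombe interval -53.6 to -42.7). Both strands were low in I-PpoI, with 0% to 10% at the 3 reverse-strand and 3.85% to 13.0% at the 9 forward-strand cytosines.

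Of the other losses named inside genes by these minimums, Lrpprc, encoding a protein that binds mitochondrial mRNA (17:84776001-84777000), had 55.1% in WT and 13.2% in I-PpoI, lower at 9 of 9 cytosines. Atg4c, an autophagy protease gene (4:99296001-99297000), had 49.2% and 8.13% and was lower at 8 of 8. The RNA helicase gene Ddx19a (8:110993001-110994000) had 55.7% and 16.5%, lower at 7 of 8. In Dgkh, a diacylglycerol kinase gene (14:78650001-78651000), the levels were 49.7% and 17.7%, and without outer-strand cytosines 45.8% and 11.4%. Alkbh4, of the AlkB family of dioxygenases (5:136139001-136140000), had 57.1% and 25.5% over 14 cytosines, all lower, with its midpoint 719 bp from a start. These 6 windows were all called lower. On reverse-strand cytosines alone the difference was -31.6 points at Gnas and -17.6 at Ddx19a, the latter under the 25 points asked. At Alkbh4 it was -22.2 on the reverse strand, also under the 25, and -42.0 on the forward.

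Higher levels in I-PpoI were found at fewer windows. Ube2d1, a ubiquitin-conjugating enzyme gene, held 8 cytosines in 10:71258001-71259000, at 27.1% to 53.7% in WT and 64.4% to 81.1% in I-PpoI, with no overlap. Its 4 reverse-strand cytosines were lower in WT than its 4 forward ones, at 27.1% to 39.1% against 40% to 53.7%. In I-PpoI the reverse strand was at 71.4% to 81.1% and the forward at 64.4% to 75%. Cnbd2, named for its cyclic nucleotide-binding domain (2:156363001-156364000), had 57.4% and 89.3%, and both windows were called higher. On the forward strand alone Ube2d1 differed by 20.4 points, under the 25 asked. The 7 cytosines of Cnbd2 were all on the forward strand, with 121 summed I-PpoI reads. Ccz1, a subunit of a RAB7 exchange factor (5:144002001-144003000, 53.5% and 78.5%), and Snd1, an RNA-binding nuclease gene (6:28910001-28911000, 43.6% and 65.1%), came next and were not called.

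Outside genes, among windows that met the same minimums, gains reached further than losses. A window on chromosome 18 (18:45024001-45025000), nearest Ythdc2 at 134780 bp, had 48.8% in WT against 92.5% in I-PpoI. The difference was 43.7 points (39.4 to 47.7), with higher levels at 8 of 8 cytosines, all of them on the forward strand. Adjoining windows of chromosome 8, nearest the neuropeptide Y receptor gene Npy5r at 76465 and 75465 bp, had 40.2% and 77.4% (8:66603001-66604000) and 43.3% and 85.9% (8:66604001-66605000), higher at 9 of 9 and 14 of 14 cytosines. In the second of these the reverse strand was at 0% to 25.9% in WT and 42.9% to 73.3% in I-PpoI, and the forward strand at 35.0% to 98.1% and 80.7% to 100%. The largest losses outside genes lay nearest Jarid2 (13:44532001-44533000, 58.8% and 25.9%), Rps6kc1 (1:190772001-190773000, 58.9% and 26.6%) and Zfp366 (13:99148001-99149000, 50.4% and 18.6%). Each of these held 1 outer-strand cytosine at 100% in both libraries, and their lowest cytosines in I-PpoI were at 14.04%, 0% and 6.15%. All 6 were called. On the reverse strand alone the window nearest Rps6kc1 differed by -14.8 points, under the 25 asked.

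The median distance of members to an annotated start lay between those of low and of fully methylated windows. The midpoint of the 3505 members on chromosomes with annotated starts in the promoter table was a median of 18389 bp from a start, and 6.48% lay within 1000 bp. In CpG-poor windows under 20% these values were 9309 bp and 24.3%, and in those over 80% 28061 bp and 2.33%. The median difference was -3.97 points within 1000 bp (227 windows), -4.51 from 1000 to 50000 bp (2504) and -3.35 beyond (774). Adjoining windows of 3 or more cytosines were measured 1490 times, with a median WT level of 68.5%, 39.7% at 80% or over and 16.3% under 20%. Members adjoined each other in 54 pairs.

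Of 10839 protein-coding genes with a CpG-poor window, 1489 (13.7%) held a member, 1214 of them 1 member and 73 of them 3 or more. Zbtb7c, a zinc finger gene, held 7 members among 23 CpG-poor windows and Gse1 7 among 58. Igsf21, of the immunoglobulin superfamily, held 6 among 38, and Sdk2, which encodes the adhesion protein sidekick 2, 5 among 33. The predicted gene Gm37013 held 5 among 44, of which 4 lay in overlapping gene models too. All 5 of Sdk2 were lower in I-PpoI, with differences of -24.5 to -3.86 points, against 5 of 7 in Zbtb7c and 5 of 7 in Gse1. Lmx1b, a LIM homeobox gene named after its values were seen, held 5 among no more than 12 CpG-poor windows.

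Lists of blood and of kidney genes both held members in a larger share of their CpG-poor windows than genes at large. The 7 blood lists had 39 members among 358 windows (10.9%), against 2230 of 44661 (4.99%) over all genes with such windows. Of these 39, 27 were lower in I-PpoI, with a median of -5.83 points against -4.06 for all members inside genes. Over all members inside genes 1523 of 2230 (68.3%) were lower, the share to set beside each count of lower members below. Kidney proximal tubule genes had 7 of 69 (10.1%) and imprinted genes 6 of 85 (7.06%). No test was made, since lists and members were chosen with results in view. B cell genes had 11 of 74 and T cell genes 12 of 109. Genes of stem and progenitor cells had 11 of 103 and erythroid and platelet genes 3 of 18, monocyte genes 2 of 33, neutrophil genes 0 of 18 and NK genes 0 of 3.

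Among B cell genes 8 of 11 members were lower in I-PpoI, with a median of -9.48 points. Ebf1, a transcription factor that starts the B lineage, held 3, with 47.1% in WT and 22.0% in I-PpoI at 11:44685001-44686000, 59.1% and 38.9% at 11:44821001-44822000, and 59.5% and 49.1% at 11:44893001-44894000. The B cell regulator Pax5 had 46.4% and 38.3% at 4:44578001-44579000, and Pou2f2, encoding OCT2, 45.7% and 36.2% at 7:25121001-25122000. Both were higher in I-PpoI at a coverage minimum of 30 reads, by 1.07 points in Pax5 and 4.20 in Pou2f2. The 3 members higher in I-PpoI lay in Blnk, an adaptor of the B cell receptor, with 41.1% and 53.4%, in Ralgps2 with 54% and 63.2%, and in Cd22 with 42.9% and 45.02%, where the interval of -5.36 to 9.65 points held 0.

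T cell genes were lower at 8 of 12 members, with a median of -4.04 points. Cd6, a T cell surface receptor gene (19:10829001-10830000), had 41.1% and 36.4%, and the T lineage regulator Bcl11b (12:107962001-107963000) had 47.4% and 44.0% by pooled reads. In this Bcl11b window 1 of 8 cytosines was lower, 1 equal and 6 higher in I-PpoI, and the difference of -3.39 points was 4.63 with thinned reads and 2.80 with equal weights. Fyn, a kinase of the T cell receptor pathway, had 54.5% and 26.1% in one window and 42.1% and 35.9% in another. Cd247, which encodes the zeta chain of that receptor, was higher in I-PpoI, with 57.7% and 69.0%. Stem and progenitor genes were lower at 9 of 11, among them all 4 members of Hlf, with 47.8% and 41.8% at 11:90347001-90348000 as the window of most reads. Fli1 (9:32506001-32507000) had 43.6% and 43.0%, and Kit, the stem cell factor receptor, 44.0% and 25.5%. In Bcl11a, the repressor of fetal globin, 11:24131001-24132000 had 56.1% and 29.3%, and a second window 41.5% and 49.1%. The first of these Bcl11a windows differed by -26.9 points, but by -16.95 with thinned reads, -15.98 with equal weights and -17.8 on the reverse strand, all under the 25 asked. Spi1, the myeloid regulator PU.1 (2:91113001-91114000), had 59.4% and 46.5%. Csf1r, the macrophage growth factor receptor (18:61120001-61121000), had 46.7% and 61.7% on 60 reads in each library, a difference whose interval of -2.74 to 31.5 points held 0. Zfpm1 (8:122331001-122332000), a partner of GATA factors, had 41.5% and 47.5% with an interval of -5.92 to 17.8. Of the 39 blood members, those of Bcl11a, Ebf1, Fyn and Ralgps2 called lower numbered 4 in all, and none was called higher. Without outer-strand cytosines the called windows of Ebf1 and Fyn differed by -24.6 and -20.6 points, under the 25 asked. The one in Fyn had 143 WT and 88 I-PpoI reads. Over all windows 1.00% were called lower and 0.0741% higher, and over all members 2.59% and 0.50%.

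Lists outside the blood held members too. Of the 7 members in kidney proximal tubule genes 6 were lower, such as Lrp2, encoding the endocytic receptor megalin (2:69546001-69547000, 53.0% and 45.7%), and Slc13a3, a dicarboxylate transporter gene (2:165420001-165421000, 45.9% and 32.4%). The difference at Slc13a3 was -13.5 points, but -1.80 on the reverse strand alone. Of the 6 in imprinted genes 2 were lower, Gnas and Zdbf2 (1:63309001-63310000, 55.5% and 33.1%), and 4 higher by 0.17 to 9.53 points. The intervals of these 4 all held 0, and the one in Impact differed by -3.20 points without outer-strand cytosines. Of the methylation machinery the de novo methyltransferase gene Dnmt3a (12:3871001-3872000) had 57.4% and 51.8%, and Uhrf1 (17:56308001-56309000), which guides maintenance methylation, 56.1% and 62.4%. The interval at Uhrf1, -6.58 to 18.8 points, held 0. The single member of the damage response list lay in Cdkn1a, the gene of the cell cycle inhibitor p21, at 17:29099001-29100000, with 51.0% and 34.2%. Of its 5 cytosines 1, at position 84, carried the difference, with 56.1% and 16.9%, and the other 4 were at 87.5%, 79.3%, 100% and 14.9% in WT and at 78.6%, 80%, 100% and 13.0% in I-PpoI.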

How the data were processed

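RRBS libraries of peripheral blood cells, 1 WT and 1 I-PpoI, came from a Zymo-Seq kit per the labels' protocols, and methylKit was used per the submitters' processing notes. Not given in the sources used here: aligner, build, trimming and removal of duplicates. The deposited tables give, per the file headers, each cytosine's read count (coverage) and the percent of reads with C and with T. Percent times coverage was whole within 1e-06 at 100% of cytosines, so methylated read counts were recovered. No cytosine under 10 reads was listed.

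Reads were summed per 1000 bp window over cytosines listed in both libraries, with no cap on coverage. Levels carry Wilson and differences Newcombe 95% intervals, and shares exact binomial ones. The labels name no molecular identifiers. Two-sided Fisher's exact tests with Benjamini-Hochberg adjustment ran over 165945 windows and were tested on simulated data. They compare libraries, not conditions. Python 3.11.15, numpy 2.4.6, pandas 2.3.3, scipy 1.17.1, numba 0.67.0 and matplotlib 3.10.9 were used.

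The members and the gene lists were chosen with earlier results of these data known. Windows named were, by minimums given in the text, the 6 largest losses and 4 largest gains inside protein-coding genes, 3 of each outside, the 5 smallest and 5 largest SDs, up to 5 genes with most members and up to 2 genes a list with their best covered window. Others were chosen after their values were seen. A further gene list is not reported here. RefSeq tables of GRCm38.p6 gave gene spans without exons, and promoter sequences without chromosome 18. Alternatives changed coverage, strand, window phase, weighting, depth, thresholds, level bounds and the library that chose the members. Leaving out end cytosines and splitting by strand were added after seeing the data.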

Additional observations from a re-analysis of the deposited data

How the results depend on the processing

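No paired analysis was possible because each group had 1 library. The median difference was below 0, inside and outside genes, under every alternative run. It moved beyond its interval with equal weights to cytosines (-3.33 points inside, -3.46 outside), with windows chosen by the I-PpoI level (-6.23, -5.99) or by the mean of both levels (-5.08, -5.26), with the strands exchanged from reverse to forward (-4.70, -4.78) and, inside genes, without the first and last CpG (-3.59).

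The number of member windows moved to 1953 at a coverage minimum of 30 reads, 2269 on forward-strand and 2219 on reverse-strand cytosines alone, 1808 at WT levels of 45% to 55%, 1970 with 8 to 15 cytosines and 1979 without the first and last CpG. The share of mixed windows was 41.02% and 37.3% at coverage minimums of 20 and 30 reads, 46.6% on the reverse strand, 51.7% with thinned reads, 61.3% with equal weights, 38.7% when chosen by the I-PpoI level and 44.7% by the mean, 57.3% with 8 to 15 cytosines, 22.7% at bounds of 10% and 90%, 75.95% at 30% and 70%, 43.0% without outer-strand cytosines and 37.9% without the first and last CpG. Fewer cytosines or reads, or other bounds, enter by construction.

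Lower calls numbered 55 and 25 at coverage minimums of 20 and 30, 58 on the reverse strand, 48 at 45% to 55%, 273 when chosen by the I-PpoI level, 214 by the mean, 34 with 8 to 15 cytosines, 41 without the first and last CpG and 621 at a minimum difference of 10 points. Higher calls numbered 6 and 6 at the coverage minimums, 11 with thinned reads, 9 at 45% to 55%, 6 when chosen by the I-PpoI level, 5 with 8 to 15 cytosines, 11 without the first and last CpG, 111 at 10 points and 0 by a fold of 2, which a window of 50% or more cannot pass. The cause of the other shifts was not tested. Members numbered 2623 and 1953 at the coverage minimums, 4173 when chosen by the I-PpoI level and 3883 by the mean. The share of all windows called was taken under the main setting alone, so the counts of calls are given without a reading. Of 44 named windows, 34 kept their sign under every alternative that gave a value, and the other 10 were not called. Depth limits single windows, and members under 200 WT reads held 45 of 94 lower calls.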
